A study of Mus musculus with 15 samples.

Results

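Fibroblast growth factor (FGF) signalling in the developing mouse palate was followed through 10 genes, chosen by name among the 54232 genes of the deposited count table. They were the ligands Fgf7, Fgf9, Fgf10 and Fgf18, the receptors Fgfr1, Fgfr2, Fgfr3 and Fgfr4, and the feedback inhibitors Spry1 and Spry2. All 10 were among the 22151 genes with enough counts to be tested, and their counts per library ran from 77 (Fgf18 in 1 P0 library) to 24833 (Fgfr1 in 1 E15.5 library). The tissue was the secondary palate, the shelves that grow from the sides of the mouth, lift, fuse in the midline and form bone and muscle. Bulk RNA-seq libraries were made from wild-type mice (genotype WT, with no strain, other allele or treatment named in the labels of any group) at embryonic days E13.5, E14.5, E15.5 and E16.5 and at the day of birth, P0. Each of the 5 stages had 3 libraries, and each library came from the pooled palates of 3 embryos, so a value is an average over animals and p-values measure the spread between pools. The labels do not say whether the pools of a stage came from separate litters.

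FGF ligands are secreted proteins that bind heparan sulfate and receptor tyrosine kinases on nearby cells, and the receptors signal through adaptor proteins to the RAS and ERK pathway. In the palate, Fgf7 and Fgf10 are made mainly by mesenchyme and act on the epithelial splice form of Fgfr2, Fgf9 and Fgf18 act mainly on receptor forms of the mesenchyme, and loss of Fgf10 or of epithelial Fgfr2 is known to cause cleft palate. Sprouty proteins such as Spry1 and Spry2 are induced by the signal and dampen it inside the cell. The count table holds 1 value per gene, so the epithelial and mesenchymal splice forms of a receptor were not told apart.

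Libraries held 21.5 to 69.0 M counts, with the lowest at P0 (replicate 3), so that 3 counts, taken as the detection floor, were worth 0.0435 to 0.140 counts per M (CPM). Counts were scaled with edgeR's trimmed mean of M values, TMM, and tested with edgeR's quasi-likelihood test, and every adjusted p below is a Benjamini-Hochberg value over all 22151 genes, with 0.05 as the threshold. Libraries of 1 stage differed well beyond counting error (chi-square per degree of freedom 32.6 to 246). Markers of palate mesenchyme (11 genes) and epithelium (12 genes) were above 0 at every stage. Cell type markers changed from E13.5 to P0, a contrast in which 56.6% of all tested genes changed in either direction. At P0, 8 of 10 osteoblast genes, 8 of 11 skeletal muscle genes and 7 of 12 epithelial genes were higher and none lower. The epithelial count was near the share of all genes. Of the cell cycle genes, 9 of 10 were lower and none higher. Of 11 mesenchyme genes, 6 were lower (Prrx1, Twist1, Twist2, Osr1, Osr2 and Pdgfra) and 4 higher (Vim, Col3a1, Lum and Dcn), and of 13 chondrocyte genes 4 were lower and 2 higher. In bulk tissue, fewer cells of a type and less RNA per cell cannot be told apart.

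Across the 5 stages, 5 of the 10 genes changed: Fgf7, Fgf9, Fgf10, Fgfr4 and Spry1. Of all tested genes, 59.1% changed across the stages, so that this count is near the background. Between E13.5 and P0, Fgf7 and Spry1 rose and Fgf9 and Fgf10 fell, which is 4 of 10 genes, where 56.6% of all genes changed. The median log2 fold change of the 10 genes from E13.5 to P0 was 0.19, against 0.03 over all tested genes. Fgfr1, the most abundant receptor, and Fgfr2, Fgfr3, Fgf18 and Spry2 did not pass the test across stages.

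**Figure D1:**
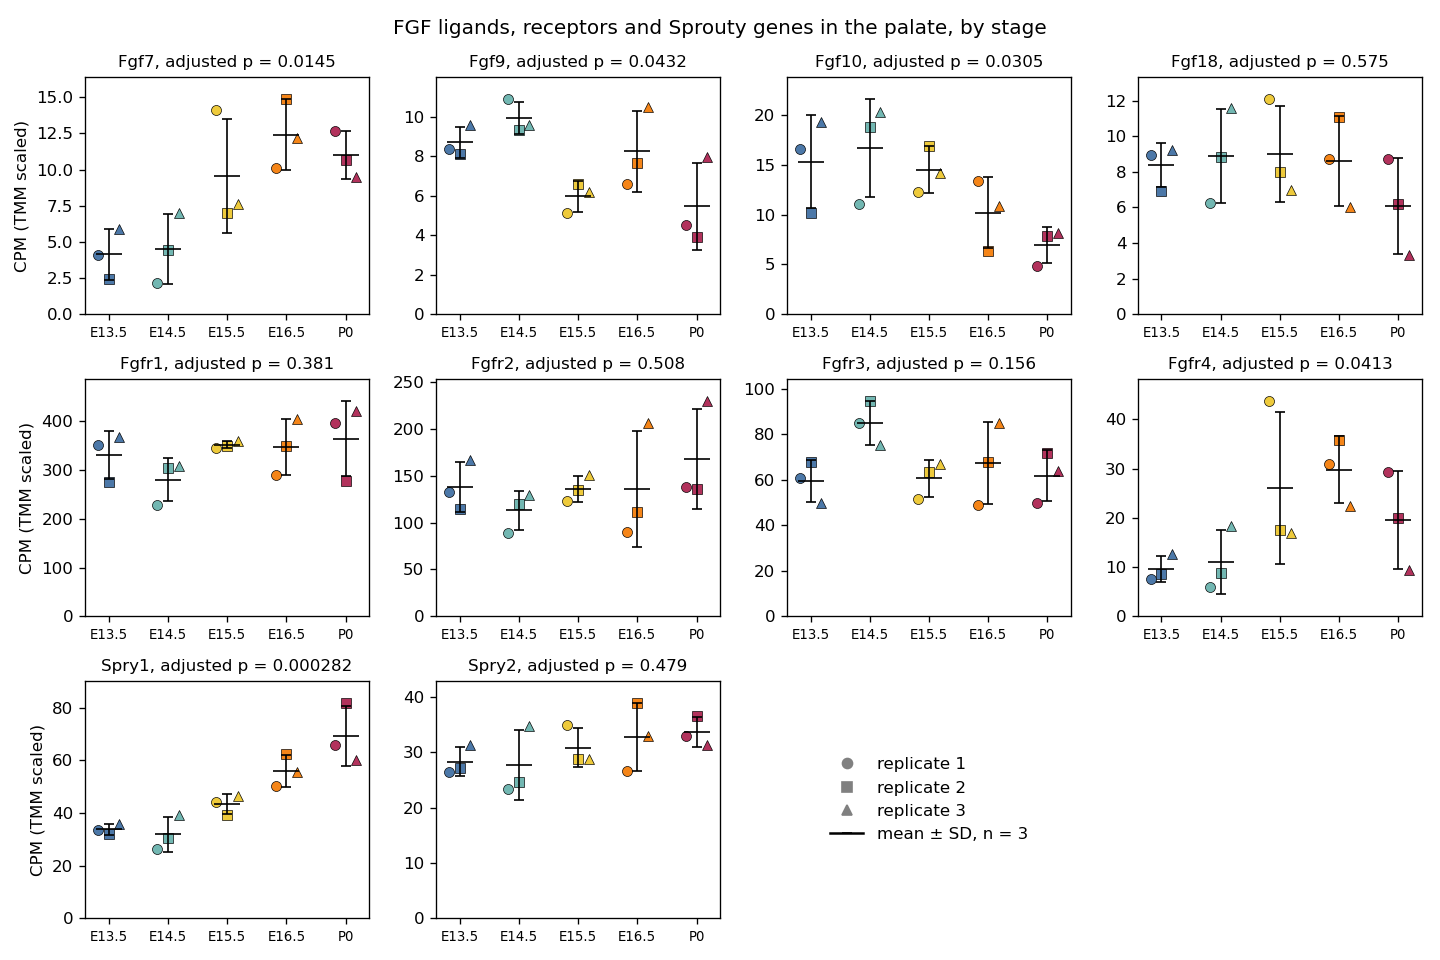
Expression of the 10 genes in each library (points, 1 symbol per replicate number) as TMM-scaled CPM on linear axes that start at 0, by stage, with the mean and SD of 3 libraries in black and the adjusted p across stages above each panel. Spry1 climbed from a mean of 33.8 CPM at E13.5 to 69.3 CPM at P0, Fgf7 was higher and Fgf10 lower at P0, and the 3 libraries of a stage were far apart for Fgfr4.

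The stretch before the start of transcription is shown for the 3 genes that changed across stages by 2-fold or more between stage means and whose window held no exon of the gene itself, with Spry2 beside its paralog Spry1. Each window is the 250 bases before the start in the RefSeq entry (GRCm38.p6), printed 5′ to 3′ on the gene's strand, with capitals for a GC box. They lie at chr2:126034408-126034657 (plus strand) for Fgf7, chr13:118714449-118714698 (plus strand) for Fgf10, chr3:37639697-37639946 (plus strand) for Spry1 and chr14:105896820-105897069 (minus strand) for Spry2.
Fgf7: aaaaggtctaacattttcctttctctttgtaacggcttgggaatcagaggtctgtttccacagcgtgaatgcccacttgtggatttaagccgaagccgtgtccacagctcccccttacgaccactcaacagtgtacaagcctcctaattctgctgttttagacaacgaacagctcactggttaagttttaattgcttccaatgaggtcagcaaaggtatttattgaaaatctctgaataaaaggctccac
Fgf10: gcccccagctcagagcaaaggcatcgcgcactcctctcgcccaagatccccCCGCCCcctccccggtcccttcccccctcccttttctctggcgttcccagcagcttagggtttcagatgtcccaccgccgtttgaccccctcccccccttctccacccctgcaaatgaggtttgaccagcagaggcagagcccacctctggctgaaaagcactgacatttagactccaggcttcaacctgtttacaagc
Spry1: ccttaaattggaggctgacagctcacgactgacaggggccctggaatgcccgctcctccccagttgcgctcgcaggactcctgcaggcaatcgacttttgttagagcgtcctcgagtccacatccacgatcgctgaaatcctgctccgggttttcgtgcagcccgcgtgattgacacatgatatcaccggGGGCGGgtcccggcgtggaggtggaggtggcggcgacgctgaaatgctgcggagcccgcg
Spry2: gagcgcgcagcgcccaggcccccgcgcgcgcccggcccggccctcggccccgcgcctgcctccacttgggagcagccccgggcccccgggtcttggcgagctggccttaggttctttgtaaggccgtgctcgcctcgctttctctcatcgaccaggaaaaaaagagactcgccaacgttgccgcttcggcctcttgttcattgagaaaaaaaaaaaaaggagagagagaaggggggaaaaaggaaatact
The start used for Fgf10 lies 44908 bases inside the gene as the count table draws it, and the other 3 starts are the gene's own. Fgf7 differed most from the others in base composition, with 43.6% G or C and 6 CpG dinucleotides, against a median of 52.4% and 6 over 32851 RefSeq promoter windows of the same length. Spry1 and Spry2 each had 62.4% G or C and 23 CpG dinucleotides. Both strands were searched for 4 short motifs: the ETS core CCGGAA, the E-box CAGCTG, the TATA box TATAAA and the GC box GGGCGG. In these 4 windows the matches were 1 GC box in Fgf10 and 1 in Spry1, and none of the 4 motifs was found for Fgf7 or Spry2. Over all windows the GC box was found in 32.7%, the E-box in 13%, the TATA box in 12.4% and the ETS core in 12%. RefSeq windows were found for 9 of the 10 genes, and 6 of their 10 windows (Fgfr3 has 2) held a GC box. A match describes the letters and was not tested as a binding site.

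Fgf7 (chr2:126034658-126091185, plus strand, GRCm38), the ligand also called keratinocyte growth factor, was low before E15.5 and high after it. Its 3 libraries stood at 4.08, 2.42 and 5.90 CPM at E13.5 and at 2.17, 4.43 and 7.01 CPM at E14.5. They stood at 14.1, 7.01 and 7.62 CPM at E15.5, at 10.1, 14.9 and 12.2 CPM at E16.5 and at 12.7, 10.7 and 9.49 CPM at P0. Every E16.5 and P0 library was above every E13.5 and E14.5 library, while an E14.5 and an E15.5 library met at 7.01 CPM. From E13.5 to P0 Fgf7 rose by a log2 fold change of 1.41 (SE 0.43, 95% interval 0.49 to 2.33, adjusted p = 0.0133), and across the 5 stages its adjusted p was 0.0145 with a 3.13-fold range of stage means. The step from E14.5 to E15.5 was 1.07 on the log2 scale (adjusted p = 0.0765), and it was 0.68 without E15.5 replicate 1 and 1.52 (adjusted p = 0.0266) without E14.5 replicate 3. Without E13.5 replicate 2, the call from E13.5 to P0 was lost (log2 fold change 1.13, adjusted p = 0.0574).

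Fgf10 (chr13:118669791-118792115, plus strand), the other mesenchymal ligand of Fgfr2, went the opposite way. Its libraries stood at 16.6, 10.2 and 19.3 CPM at E13.5, at 11.1, 18.8 and 20.3 CPM at E14.5 and at 12.3, 16.9 and 14.2 CPM at E15.5. At E16.5 they stood at 13.4, 6.34 and 10.9 CPM and at P0 at 4.85, 7.84 and 8.19 CPM. The 3 P0 libraries were below every library of the first 3 stages, and those 3 stages overlapped one another. Prrx1, a mesenchymal transcription factor, stood at 385, 289 and 453 CPM at E13.5 and at 93.9, 94.7 and 139 CPM at P0, while the summed mesenchyme markers ran from 3375 to 4921 CPM and from 6365 to 8700 CPM. Their part in the Fgf10 values was not tested. Fgf10 fell by 1.14 on the log2 scale from E13.5 to P0 (SE 0.34, 95% interval -1.87 to -0.42, adjusted p = 0.0115) and differed across stages with an adjusted p of 0.0305. Without P0 replicate 1 the fold change was -0.90 with an adjusted p of 0.0639, so the call rests on that library. The call across stages was also lost when 1 library was left out in 6 of 15 such fits.

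Fgf9 (chr14:58070547-58112720, plus strand), a ligand made largely by epithelium, was highest at E14.5 and lowest at P0. It measured 8.37, 8.13 and 9.58 CPM at E13.5, 10.9, 9.34 and 9.58 CPM at E14.5 and 5.11, 6.57 and 6.19 CPM at E15.5. It measured 6.58, 7.64 and 10.5 CPM at E16.5 and 4.52, 3.90 and 7.97 CPM at P0. The E15.5 libraries were all below those of E14.5 and E13.5, and P0 was below E13.5 in every library. The change from E13.5 to P0 was -0.67 on the log2 scale (SE 0.26, adjusted p = 0.0411) and from E14.5 to E15.5 -0.74 (SE 0.26, adjusted p = 0.0517). The first of these was lost in 7 of 15 fits that left out 1 library, at most with an adjusted p of 0.172 without P0 replicate 2, and the call across stages (adjusted p = 0.0432) in 12 of 15.

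Fgf18 (chr11:33117430-33147400, minus strand), a ligand known for its part in growing cartilage and bone, stayed within a 1.55-fold range of stage means. Its libraries spanned 6.94 to 9.25 CPM at E13.5 and 3.35 to 8.71 CPM at P0, with the lowest value in P0 replicate 3, the shallowest library. The change from E13.5 to P0 was -0.46 on the log2 scale, with a 95% interval of -1.23 to 0.31 that holds no change (adjusted p = 0.286).

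Levels of different genes were compared only per length, as CPM per kilobase of annotated exon. On this scale Fgf18 was the most abundant of the 4 ligands, above Fgf9 and Fgf10 in 15 of 15 libraries and above Fgf7 in 14. At E13.5 the ligands ran from Fgf18 at 7.06 ± 1.05 CPM per kb (SD, n = 3) through Fgf10 at 3.33 ± 1.01 and Fgf9 at 1.87 ± 0.168 to Fgf7 at 1.27 ± 0.535. At P0 Fgf7 had moved up to 3.38 ± 0.505 CPM per kb, and Fgf10 stood at 1.51 ± 0.398 and Fgf9 at 1.18 ± 0.471. Fgf18, at 5.13 ± 2.26 CPM per kb, was above Fgf7 in only 2 of the 3 P0 libraries, and the spreads of Fgf10 and Fgf9 met at that stage. The order of the 2 ligands of epithelial Fgfr2 turned over: Fgf10 was above Fgf7 in 3 of 3 libraries at E13.5, 3 at E14.5 and 2 at E15.5, and in 0 of 3 at E16.5 and at P0. In CPM without division by length, Fgf10 was still above Fgf7 in E16.5 replicate 1 (13.4 against 10.1).

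The share of each ligand in the summed CPM per kb of the 4 ligands does not depend on the scaling between libraries. Fgf7 made up 9.13% ± 2.2 (SD, n = 3) at E13.5 and 9.05% ± 2.76 a day later. Its share then reached 19.2% ± 4.2 by E15.5, 25.3% ± 3.83 by E16.5 and 30.3% ± 1.16 by birth. The libraries at P0 lay between 29.5% and 31.6%, above every library of the other stages, and those at E15.5 (15.4% to 23.7%) above every library at E13.5 and E14.5. A permutation test over the 15 libraries (100000 resamples of the F statistic, two-sided by construction) gave p = 0.00012, adjusted p = 0.00096 over the 8 shares tested. The share of Fgf10 was 24.3% ± 2.89 at E13.5 and 14.2% ± 5.75 at P0, which did not pass the same permutation test (adjusted p = 0.193). Shares of Fgf9 (adjusted p = 0.524) and Fgf18 (adjusted p = 0.745) did not pass either.

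**Figure D2:**
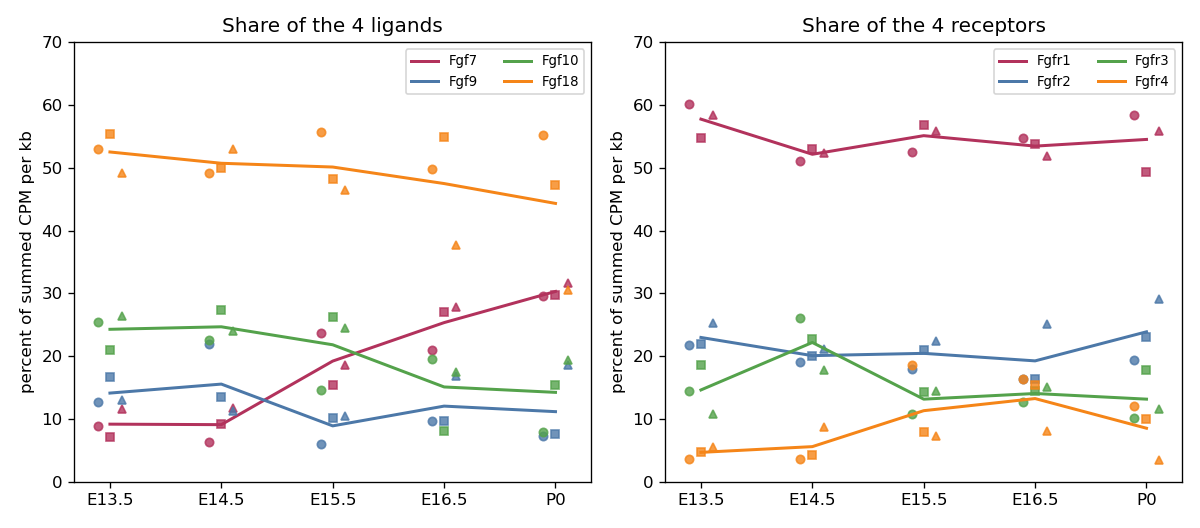
Share of each ligand (left) and each receptor (right) in the summed CPM per kb of its 4 genes, in percent, with 1 point per library and a line through the stage means. The Fgf7 line climbs from 9.13% to 30.3% and crosses that of Fgf10, while Fgfr1 holds 49.3% to 60.2% of the receptor sum in every library.

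Fgfr1 (chr8:25513654-25575718, plus strand), a receptor of mesenchyme, was the highest of the 4 receptors per kb in 15 of 15 libraries. Its stage means lay between 28.4 ± 4.48 CPM per kb at E14.5 and 37.0 ± 7.85 at P0 (SD, n = 3), and its CPM from 229 to 422 over all libraries. At E15.5 its libraries lay close together, at 345, 350 and 359 CPM. From E13.5 to P0 it differed by 0.14 on the log2 scale, with a 95% interval of -0.26 to 0.54 (adjusted p = 0.535).

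Fgfr2 (chr7:130162451-133123350, minus strand), the receptor whose epithelial form binds Fgf7 and Fgf10, had stage means of 10.9 to 16.2 CPM per kb. Its RefSeq start lies 2856542 bases inside the gene as the count table draws it, and the per-kb levels use all 10328 annotated exon bases. Per kb, Fgfr2 was below Fgfr3 in 2 of the 3 E14.5 libraries and below Fgfr4 in 1 library each at E15.5 and E16.5. Its libraries stood at 133, 115 and 167 CPM at E13.5, 89.4, 120 and 129 CPM at E14.5 and 123, 135 and 151 CPM at E15.5. They stood at 90.2, 111 and 206 CPM at E16.5 and 138, 136 and 230 CPM at P0. The P0 libraries were all above those of E14.5, every other pair of stages overlapped, and replicate 3 was the highest library at each stage. The change from E13.5 to P0 was 0.28 on the log2 scale (95% interval -0.36 to 0.91, adjusted p = 0.434), and it was 0.01 without P0 replicate 3.

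Fgfr3 (chr5:33721674-33737068, plus strand), a receptor known for its role in cartilage, had its highest stage mean at E14.5 but did not pass across stages (adjusted p = 0.156). Its libraries measured 60.9, 67.8 and 49.6 CPM at E13.5, 85.0, 94.7 and 75.4 CPM at E14.5 and 51.5, 63.4 and 67.0 CPM at E15.5. Later it measured 48.7, 67.9 and 84.8 CPM at E16.5 and 49.7, 71.9 and 63.8 CPM at P0. The E14.5 libraries were above all of E13.5 and E15.5, but E16.5 replicate 3, at 84.8 CPM, lay within their range. Neither the step up (0.52 on the log2 scale, adjusted p = 0.255) nor the step down (-0.49, adjusted p = 0.0946) passed. Summed Schwann and neuronal markers were also high at E14.5, at 1497 to 3138 CPM against 713 to 1870 at E13.5 and 727 to 1538 at E15.5, and their part in the Fgfr3 values was not tested.

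Fgfr4 (chr13:55152640-55168759, plus strand), a receptor known from muscle precursors, changed across stages (adjusted p = 0.0413, 3.11-fold range of stage means) and scattered widely within stages. It measured 7.67, 8.52 and 12.6 CPM at E13.5, 5.87, 8.82 and 18.4 CPM at E14.5 and 43.8, 17.6 and 16.9 CPM at E15.5. It measured 31.0, 35.9 and 22.4 CPM at E16.5 and 29.4, 19.9 and 9.45 CPM at P0. Every E16.5 library was above every E13.5 and E14.5 library, while E15.5 and P0 each overlapped at least 1 of the early stages. From E13.5 to P0 the change was 1.03 on the log2 scale with a 95% interval of -0.06 to 2.12 (adjusted p = 0.0958), and without P0 replicate 3 it was 1.38 (adjusted p = 0.0335). From E14.5 to E15.5 it was 1.24 (adjusted p = 0.0861), with 0.63 when E15.5 replicate 1 was left out and 1.82 (adjusted p = 0.0270) when E14.5 replicate 3 was. Leaving out 1 library at a time ended the call across stages 8 times of 15. The receptor shares showed no difference past the permutation test: Fgfr4 made up 4.65% ± 0.942 of the receptor sum at E13.5 and 13.2% ± 4.58 at E16.5 (adjusted p = 0.263).

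Within stages, the highest libraries of several of the 10 genes were often also the highest for markers of muscle, mesenchyme or epithelium. Myod1, a master regulator of skeletal muscle, measured 9.26, 10.2 and 18.1 CPM at E13.5, 8.47, 9.16 and 24.5 at E14.5 and 40.9, 13 and 16.9 at E15.5. At E16.5 it measured 23.9, 44.8 and 26.9 CPM and at P0 21, 14.6 and 4.22 CPM. At each of the 5 stages the library with the most Myod1 was also the one with the most Fgfr4, Fgf7 and Fgf18, and the same held for Myog, but for none of the other 9 of 11 muscle markers. Spry2 likewise shared its highest library at all 5 stages with 2 of the 11 muscle markers, Myf5 and Myh3. Summed over the 11 muscle markers the level ran from 228 to 419 CPM at E13.5, 260 to 1103 at E14.5, 1829 to 5002 at E15.5, 12797 to 39029 at E16.5 and 6109 to 37445 at P0. This sum and Fgfr4 had the same highest library at 3 of the 5 stages and the same lowest at 5. Fgf7 and Fgf18 also shared the highest library of the muscle sum at 3 of the 5 stages each. The summed mesenchyme markers had the same highest library as Fgfr4, Fgf7 and Fgf18 at 4 of the 5 stages each. No muscle marker was at 0 throughout a stage.

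Fgfr1 and Fgfr2 instead shared their highest library with the summed epithelial markers at 5 of 5 stages, and with the summed cell cycle genes at 5 of 5. Krt5 alone gave much of the epithelial sum in replicate 3, with 1217 of 2571 CPM at E16.5 and 1580 of 3603 CPM at P0. Taken singly, 3 of the 12 epithelial markers (Trp63, Krt5 and Esrp1) had the same highest library as Fgfr1 and Fgfr2 at all stages. Most did not: Epcam, Cdh1, Krt15, Krt8, Krt18, Krt19 and Cldn4 were highest in replicate 1 at E16.5. Trp63, a transcription factor of basal epithelium, measured 18.7, 51.3 and 90.1 CPM at P0 and 18.4, 34.7 and 83.3 CPM at E16.5, where Fgfr2 was also highest in replicate 3. The epithelial sum ran from 337 to 757 CPM at E13.5, 498 to 722 at E14.5, 650 to 2347 at E15.5, 1569 to 2571 at E16.5 and 1457 to 3603 at P0. Fgf10 was lowest in the library lowest in the epithelial sum at 5 of 5 stages, but shared its highest library at only 3. The chondrocyte, erythroid and macrophage sums each matched Fgf10 at 4 of 5 stages for the highest library and at 4 for the lowest. Without the E15.5 and P0 libraries that were lowest in the epithelial sum, the change of Fgf10 from E13.5 to P0 was -0.95 on the log2 scale (adjusted p = 0.0514). Myod1, Myog, Trp63 and the match of Fgf10 to the epithelial sum were picked after their values were seen. The part of any cell type in these levels was not tested.

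**Figure D3:**
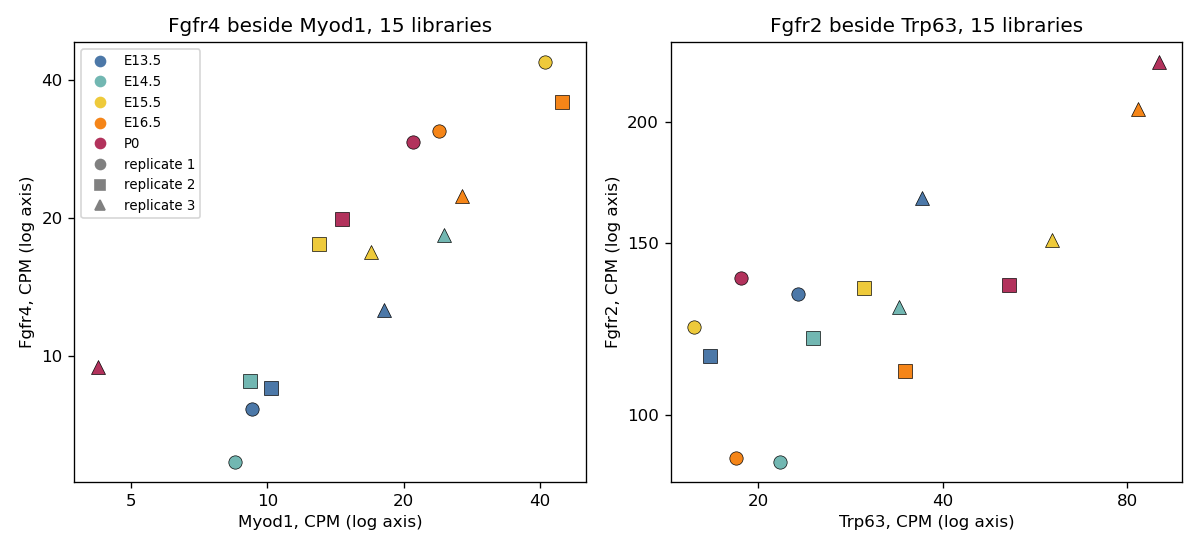
Fgfr4 against Myod1 (left) and Fgfr2 against Trp63 (right) in the 15 libraries, in TMM-scaled CPM on log axes, with colour for stage and symbol for replicate number. The library with the most Myod1 at each stage is also the one with the most Fgfr4, up to 43.8 CPM in E15.5 replicate 1, and the highest Fgfr2, 230 CPM, sits with the highest Trp63, 90.1 CPM.

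Spry1 (chr3:37639947-37644598, plus strand), an inhibitor that the signal itself induces, had the smallest adjusted p of the 10 genes. It measured 33.4, 31.9 and 36.0 CPM at E13.5, 26.2, 30.5 and 39.3 CPM at E14.5 and 44.3, 39.3 and 46.4 CPM at E15.5. It measured 50.2, 62.3 and 55.7 CPM at E16.5 and 66.0, 81.9 and 60.0 CPM at P0. Every P0 library was above every library of the first 3 stages, and the E15.5 libraries were all above those of E13.5. From E13.5 to P0 Spry1 rose by 1.04 on the log2 scale (SE 0.16, 95% interval 0.69 to 1.39, adjusted p = 0.00019). That call was kept in all 22 alternative fits, with adjusted p from 1.05e-08 to 0.00297. No single step between neighbouring stages passed: 0.44 from E14.5 to E15.5 had an adjusted p of 0.0596 and 0.37 from E15.5 to E16.5 one of 0.201.

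Spry2 (chr14:105891947-105896819, minus strand), its paralog, differed little, with stage means from 27.6 to 33.6 CPM and libraries from 23.3 to 38.9 CPM. Its change from E13.5 to P0 was 0.25 on the log2 scale (95% interval -0.13 to 0.63, adjusted p = 0.245). Per kb the order of the pair turned over: Spry2 was above Spry1 in 3 of 3 libraries at E13.5 and at E14.5, in 2 at E15.5 and in 0 at E16.5 and P0. At E13.5 the means were 13.6 ± 1.27 CPM per kb for Spry2 and 11.6 ± 0.725 for Spry1, and at P0 16.1 ± 1.32 and 23.8 ± 3.90 (SD, n = 3). The turnover rests on the annotated exon lengths, 2906 bases for Spry1 and 2087 for Spry2. In CPM without division by length, the mean of Spry1 was the higher at E13.5 too (33.8 against 28.3). The difference between the changes of the 2 genes was not tested.

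**Figure D4:**
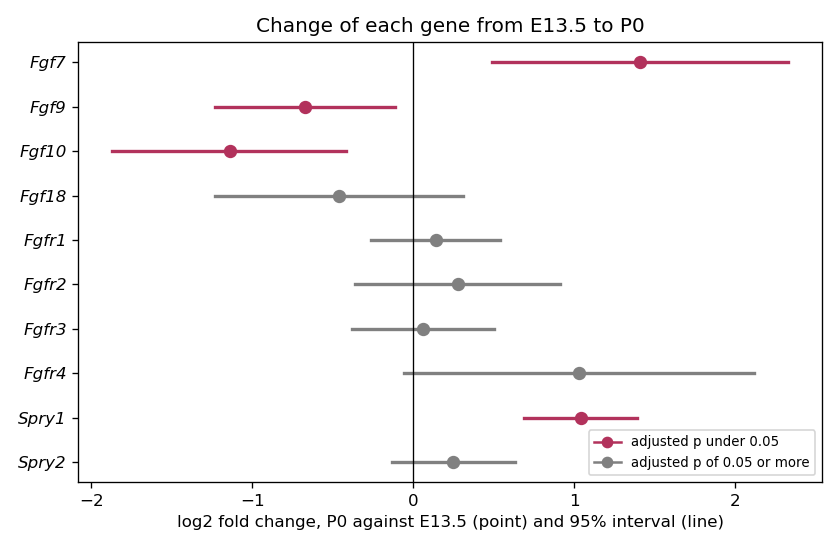
Log2 fold change from E13.5 to P0 (points) with its 95% interval (lines) for the 10 genes, coloured where the adjusted p was under 0.05. Fgf7 (1.41) and Spry1 (1.04) lie above 0, Fgf9 (-0.67) and Fgf10 (-1.14) below it, and the intervals of the other 6 genes hold 0.

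Between neighbouring stages none of the 10 genes passed the test. From E14.5 to E15.5, 26.1% of all genes passed. At this step 5 of the 10 (Fgf7, Fgf9, Fgfr3, Fgfr4 and Spry1) had an unadjusted p under 0.05, as had 39.7% of all genes, and DESeq2 called 4 of the 10 and 32.6% of all genes. Of all genes, 0.00903% passed from E13.5 to E14.5, 1.41% from E15.5 to E16.5 and 0.352% from E16.5 to P0. An unadjusted p under 0.05 was found for 1 of the 10 genes at each of these 3 steps, against 16%, 21.8% and 11.7% of all genes. DESeq2 called none of the 10 there, and 5.13%, 10.3% and 3.19% of all genes. Upper-quartile scaling moved the median of all genes from E14.5 to E15.5 to 0.16 on the log2 scale, from 0.03 with TMM, and with it Spry1 passed that step (0.56, adjusted p = 0.0252).

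The genes whose stage means most resembled those of a changed gene were sought among 8671 genes that changed across stages and reached 10 CPM, by the root mean square difference of centred log2 stage means over the 5 stages. Nearest to Fgf7 were Parp4 (0.05), Rasgrp1 (0.06) and Sytl2 (0.06). Nearest to Fgf10 were Dusp19 (0.07), Zfp521 (0.08) and Pcm1 (0.08). Nearest to Spry1 were Ctsa (0.02), Mbd2 (0.04) and the processed pseudogene Gm12918 (0.04), and nearest to Fgfr4 were Htr3a (0.10), Kcnk6 (0.12) and Nrk (0.12). The values are a description over 5 points that share libraries. Fgf9, with a range under 2-fold, was left out of this search.

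The rest of the pathway was read from 7 lists with 93 genes, of which 92 were in the table and all 92 were tested. From E13.5 to P0, 16 were higher and 37 lower, or 19 and 33 with upper-quartile scaling. With TMM that is 53 of 92, where 56.6% of all genes changed in either direction. The median log2 fold change was -0.28 against 0.03 over all genes. The shares of all genes higher and lower were not set apart, so the split by direction has no background beside it, here and for the lists below. Across the 5 stages 58 of the 92 changed, where 59.1% of all genes did. From E14.5 to E15.5, where 26.1% of all genes changed, 7 were higher and 17 lower, or 8 and 11 with upper-quartile scaling, and without E14.5 replicate 1 only 8 passed in all, without E15.5 replicate 2 or 3 only 11.

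Among 14 other ligands, 3 were higher and 2 lower at P0 than at E13.5, where 56.6% of all genes changed. Fgf1, a ligand with no classical secretion signal, measured 1.83, 1.23 and 2.48 CPM at E13.5 and 48.0, 16.3 and 18.2 CPM at P0, a log2 fold change of 3.90 (SE 0.50, adjusted p = 5.23e-05). Fgf6, a ligand of the muscle lineage, went from 0.946, 0.831 and 1.26 CPM to 12.2, 13.9 and 2.35 CPM (3.23, SE 0.71, adjusted p = 0.00209), with its lowest P0 value in the library lowest in muscle markers. Fgf15, which is expressed in embryonic brain, stood at 6.16, 37.3 and 3.33 CPM at E13.5 and at 0.0277, 0.0610 and 1.13 CPM at P0, where 2 of the 3 libraries were under the floor of 3 counts (adjusted p = 0.00752). All 3 had P0 and E13.5 libraries that did not overlap, but they were named for the size of this same change. Of the 4 FGF homologous factors, which stay inside the cell, Fgf14 was lower (-1.33, adjusted p = 0.0489) with overlapping libraries, and the call was lost in 13 of 15 fits that left out 1 library.

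Among 16 co-receptors and binding proteins, 7 were higher and 4 lower at P0 than at E13.5, where 56.6% of all genes changed. Fgfbp1, a secreted carrier that frees FGF from the matrix, measured 1.19, 1.11 and 2.56 CPM at E13.5 and 12.6, 19.9 and 27.7 CPM at P0 (log2 fold change 3.63, SE 0.52, adjusted p = 0.000112). Kl, the co-receptor Klotho, went from 0.373, 0.479 and 0.178 CPM to 2.22, 2.56 and 0.914 CPM (2.47, SE 0.57, adjusted p = 0.00283). Klb passed the test (5.65, SE 1.91, adjusted p = 0.0230) on P0 values of 1.72, 14.4 and 0.131 CPM that overlapped those of E13.5, and without P0 replicate 2 it did not (3.17, adjusted p = 0.149). Leaving out any of the 3 E13.5 libraries also ended that call, with adjusted p from 0.0538 to 0.0792.

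Heparan sulfate is the sugar chain that FGFs need to bind receptors. Of 15 enzymes that build or trim it, 9 were lower at P0 and 1 higher, with a median of -0.57. In the same contrast 56.6% of all genes changed. Sulf1, a sulfatase outside the cell, fell from 397, 252 and 283 CPM at E13.5 to 72.2, 88.8 and 108 CPM at P0 (log2 fold change -1.79, SE 0.21, adjusted p = 3.22e-05). Sulf2 fell from 608, 395 and 515 CPM to 220, 131 and 147 CPM (-1.61, SE 0.26, adjusted p = 0.000242), and the sulfotransferase Hs6st2 from 50.1, 46.2 and 49.1 CPM to 19.3, 19.2 and 11 CPM (-1.55, SE 0.26, adjusted p = 0.00032). None of the 3 had a P0 library as high as any at E13.5. They were named for the size of this change, so that is no separate support for it.

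Of 14 other feedback and target genes, 7 were lower and 1 higher, with a median of -0.49, where 56.6% of all genes changed. Spry1 was thus 1 of 2 feedback genes called higher. The other was Dusp5, a nuclear ERK phosphatase, at 2.82, 2.45 and 2.85 CPM at E13.5 and 13.1, 26.9 and 10.6 CPM at P0 (2.64, SE 0.30, adjusted p = 2.28e-05). Spry3, another Sprouty gene, was lower, at 5.82, 5.42 and 4.07 CPM against 2.11, 0.945 and 0.610 CPM (-2.05, SE 0.54, adjusted p = 0.00647). Dusp4, another ERK phosphatase, passed at -1.42 (adjusted p = 0.0128) with overlapping libraries, and not without E13.5 replicate 2 (-0.84, adjusted p = 0.0874) or P0 replicate 1 (-1.16, adjusted p = 0.0574). The other genes of the list that passed were all lower: Il17rd at -1.38 (adjusted p = 0.00398), Spred3 at -1.38 (adjusted p = 0.00301), Spred1 at -0.90 (adjusted p = 0.000219), Lrig3 at -0.64 (adjusted p = 0.0390) and Etv1 at -0.63 (adjusted p = 0.0181). The remaining 6 did not pass: Dusp6 stood at 0.09 (adjusted p = 0.686), Etv4 at 0.15 (adjusted p = 0.760), Etv5 at -0.30 (adjusted p = 0.270), Spry4 at -0.13 (adjusted p = 0.687), Spred2 at -0.35 (adjusted p = 0.144) and Lrig1 at 0.49 (adjusted p = 0.0968).

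Of 25 signal transducers, 12 were lower and 4 higher at P0 than at E13.5, where 56.6% of all genes changed. The 3 largest changes were those of Cbl, a ubiquitin ligase, at -1.38 (SE 0.23, adjusted p = 0.000343), Sos1, which loads RAS, at -1.25 (SE 0.20, adjusted p = 0.000211), and Crkl, an adaptor, at -1.11 (SE 0.15, adjusted p = 8.14e-05). Named for the size of this change, all 3 were lower in every P0 library than in every E13.5 library. Among 4 regulators of receptor splicing, Rbfox2 (-0.89, SE 0.19, adjusted p = 0.00189) and Ptbp1 (-0.87, SE 0.20, adjusted p = 0.00306) fell. Esrp1 and Esrp2, which make the epithelial receptor forms, did not pass (0.59, adjusted p = 0.334, and 0.49, adjusted p = 0.391).

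**Figure D5:**
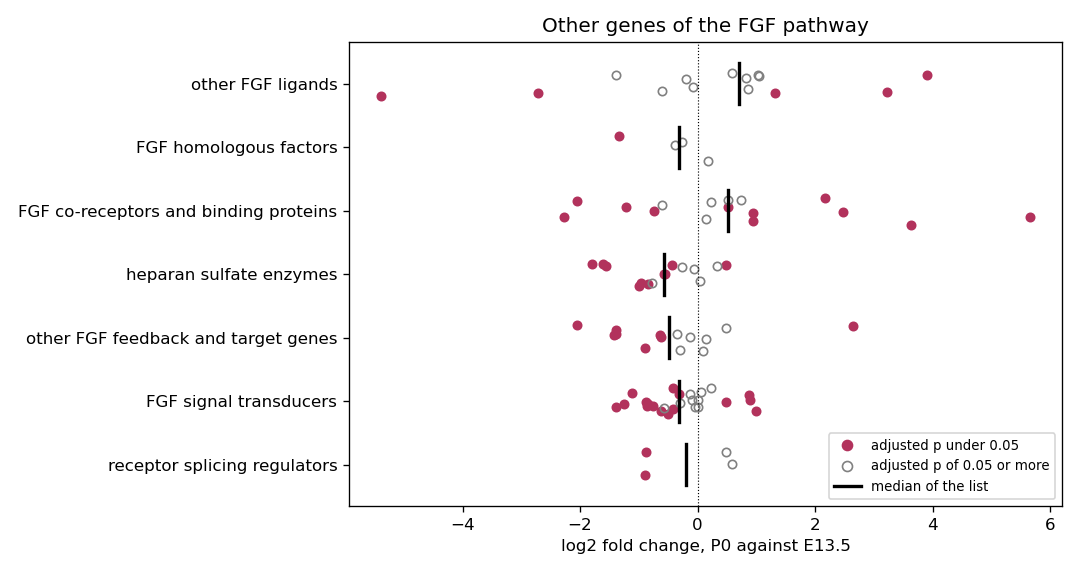
Log2 fold change from E13.5 to P0 of the 92 other genes of the FGF pathway, by list, with filled points for an adjusted p under 0.05, open points for the rest and a bar at each list's median. The medians of the heparan sulfate enzymes (-0.57) and of the feedback and target genes (-0.49) lie below 0, and those of the other ligands (0.71) and of the co-receptors and binding proteins (0.51) above it.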

How the data were processed

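Bulk RNA-seq of wild-type mouse secondary palate gave 15 libraries, 3 for each of 5 stages, which were grouped by the stage in the labels. The values are whole read counts per gene that the authors made with featureCounts 2.0.1 on a GENCODE M18 annotation, per the file headers. The submitters' processing notes also name cutadapt 3.4, HISAT2 2.2.1, SAMtools 1.12 and mm10, without their roles. Symbols were taken from GENCODE M21 by identifier (54165 of 54232 genes, 97.7% of them at the same position). The 10 genes, the pathway lists and the tests were chosen with earlier results of these data known.

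Genes were filtered with edgeR's filterByExpr (minimum count 10), and edgeR 4.0.16 under R 4.3.3 scaled the counts by TMM and fitted a coefficient for each stage to the 15 libraries together (common biological coefficient of variation 0.332). Quasi-likelihood F tests were run across stages and for 5 contrasts, with Benjamini-Hochberg adjustment over all tested genes. The scripts were tested on simulated data. Shares were tested by permutation. From each pathway list the 3 genes with the largest significant change from E13.5 to P0 were named, given a mean of 1 CPM or more in the higher of both stages. Alternatives were DESeq2 1.42.0, DESeq2 size factors, upper-quartile scaling, no filter, only the 6 libraries of a contrast, a replicate block, undivided counts for the shares and each library left out. Leaving out the E15.5 and P0 libraries lowest in epithelial genes was added after the data had been seen. Replicate numbers were not taken as pairs.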

Additional observations from a re-analysis of the deposited data

How the results depend on the processing

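Depth ran from 21.5 to 69.0 M counts, and the lowest count of the 10 genes was 77, for Fgf18 in the shallowest library. The part of depth, or of the spread between 3 pools, in which genes passed was not tested. No log2 fold change of the 10 genes that had passed reversed. Of 1100 recomputed values 1028 kept both their sign and their side of the threshold. A call was lost for 14 and gained for 18, and 40 values changed sign while they stayed uncalled. The count of the 10 genes that changed across stages was 5, and 3 with upper-quartile scaling and 3 without the E15.5 and P0 libraries lowest in epithelial genes (chosen after seeing the data); leaving out each library gave 2 to 5. From E13.5 to P0 it was 4, with 2 to 5 when a library was left out and 2 without those libraries. From E14.5 to E15.5 it was 0, against 1 with upper-quartile scaling, 4 with DESeq2, 2 with only the 6 libraries, and 0 to 3 when a library was left out. The count of the 92 other pathway genes was 24 at that step (8 to 27 when a library was left out). From E13.5 to E14.5 it was 0 (7 with DESeq2). From E15.5 to E16.5 it was 1, against 0 without the filter, 8 with DESeq2, 0 with the 6 libraries and 0 to 2 when a library was left out. From E16.5 to P0 it was 1, against 0 without the filter, 2 with DESeq2, 0 with the 6 libraries, 2 without the 2 libraries low in epithelial genes and 0 to 1 when a library was left out. The difference of P0 from E13.5 in the receptor share of Fgfr3 was -1.48 percentage points (-3.75 to 0.528 when a library was left out, 0.0433 without the 2 libraries) and in that of Fgfr2 0.866 (-1.74 to 3.11). The Fgf7 share of ligands was 21.2 points higher at P0, and 20.1 to 22.3 points higher when a library was left out. With counts not divided by gene length, its permutation test across stages had an adjusted p of 0.00432. The cause of these changes was not tested.

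Same-numbered libraries of different stages did not deviate together (median correlation 0.00 over 30 pairs, -0.30 to 0.55, with 9 over 0.1), and 7 of 15 libraries were most like one of their own number. With a replicate block, 1 of the 10 genes was called from E14.5 to E15.5 (Fgf9, adjusted p = 0.0344), Fgfr4 across stages had an adjusted p of 0.0831, and the counts of other pathway genes were 3 from E15.5 to E16.5 and 0 from E16.5 to P0.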
